A study of Mus musculus with 101 samples.

Results

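Txnip, the antisense RNA gene Gm15441 that overlaps it, the mitochondrial carrier gene Slc25a35 and the long intergenic RNA gene Gm5083 were 4 of the 15423 genes measured in germ cells of mouse embryos descended from dams given benzo[a]pyrene (BaP). Gm15441, Slc25a35 and Gm5083 were chosen by their own values: they held ranks 1, 2 and 3 by p-value in female embryos at the highest dose against vehicle females. Txnip was added as the sense partner of Gm15441 and held rank 4896 of 13288 genes in that comparison. The female values at the highest dose are therefore given as a description, with no test, and the tests of the members below compare males and the females of the other doses. All 4 genes passed the filter on low values, a mean normalized count (reads scaled to the library by the authors) of 0.5 or more across the embryos.

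Txnip encodes an alpha-arrestin that binds and inhibits thioredoxin and lowers glucose uptake, and its transcription rises with glucose through the factors MondoA and ChREBP. Gm15441 is transcribed from the opposite strand of the same locus and is known in liver as an RNA that lowers Txnip. Slc25a35 belongs to the family of carriers of the inner mitochondrial membrane, and Gm5083 is annotated as a long intergenic noncoding RNA.

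RNA was sequenced from primordial germ cells of single E13.5 embryos, sorted by the green fluorescence of an EGFP transgene driven by the Pou5f1 promoter (OG2 mice on a C57BL/6J background). F0 dams ate sesame oil alone (vehicle) or oil carrying BaP in daily doses of 0.033, 0.2 and 2 mg/kg-day. Dosing began at E6.5 and ended at E11.5 for dams of F1 embryos, and at E15.5 for dams whose line gave F2 and F3 embryos. For F2 and F3 embryos the dose is that of the F0 ancestor. With the 3 generations combined there were 17 vehicle females, 9 at 0.033, 10 at 0.2 and 12 at 2 mg/kg-day, and 17, 9, 13 and 14 males. They came from 56 dams (read from the code in each sample title, which the labels do not explain), in groups of 2 to 8 embryos within a generation. These dams are the mothers of the litters, so for F2 and F3 embryos they are F1 and F2 females. The labels do not name the dosed F0 ancestor, and litters of a dose that share one were tested as separate litters. Sequenced reads assigned to genes could be recovered from the normalized counts of 99 embryos and ran from 5004382 to 87240533, with a median of 7789673. The 11 libraries with over 20000000 reads were all of F1.

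The germ cell markers were present in all groups. Ddx4, an RNA helicase of germ cells, averaged 505 ± 117 normalized counts (SD, n = 17) in vehicle females and 375 ± 130 (SD, n = 17) in vehicle males. Sox9, which defines Sertoli cells, was near 0 in vehicle females (0.0381 ± 0.0694, SD, n = 17) and reached 5.90 ± 5.01 (SD, n = 17) in vehicle males. RNA of other gonadal cells was thus still present in the sorted males. Macrophage markers were present in both sexes. They summed to 24.1 ± 12.2 normalized counts (SD, n = 17) in vehicle females and 19.8 ± 11.8 (SD, n = 17) in vehicle males. In such bulk samples a smaller share of cells with a transcript cannot be told apart from less of it per cell.

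Both Txnip and Slc25a35 share exon bases with a gene on the opposite strand. In the GENCODE annotation of GRCm38, Txnip lies at chr3:96557957-96561883 on the plus strand, wholly inside Gm15441 at chr3:96555765-96566801 on the minus strand. The exons of the 2 genes have 606 bases in common, 19.4% of the 3123 exon bases of Txnip and 36.2% of the 1676 of Gm15441. Slc25a35 lies at chr11:68968131-68974365 on the plus strand, and its last exon reaches into Rangrf, which encodes a factor that binds the small GTPase Ran, at chr11:68972484-68975185 on the minus strand. These 2 genes share 1151 exon bases, 31.3% of Slc25a35 and 90.7% of Rangrf. Gm5083 lies at chr13:44121167-44125179 on the plus strand and overlaps no annotated gene. The cDNA kit used does not mark the strand and no strand setting is stated for the counting, so within the shared bases the reads of a gene and of its partner cannot be told apart. The authors counted reads on an mm10 gene model, and whether its exons overlap as those of GENCODE do was not checked.

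**Figure D1:**
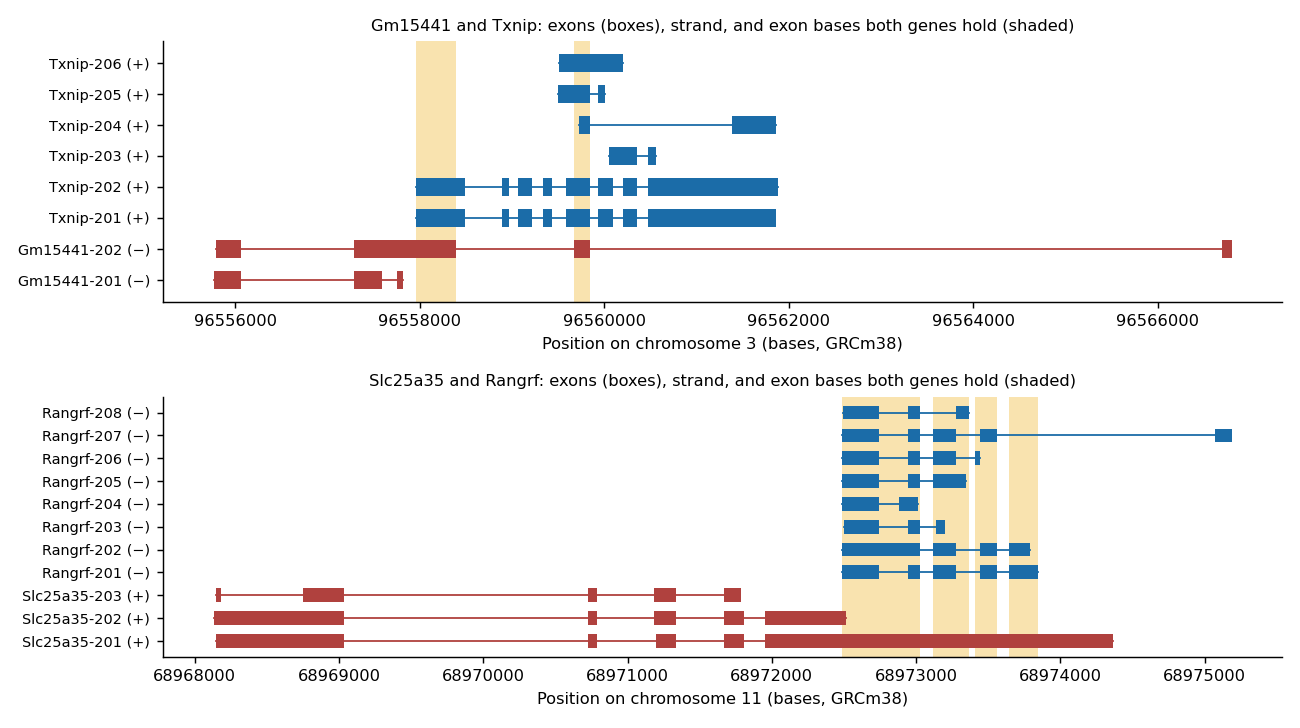
Transcripts of Gm15441 and Txnip on chromosome 3 and of Slc25a35 and Rangrf on chromosome 11 (GENCODE, GRCm38), with exons as boxes, introns as lines, the strand in brackets and position in bases on the horizontal axis. Shading marks the 606 and 1151 exon bases that the genes of each pair have in common.

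Per kilobase of annotated exon, Txnip had the highest level of the 4 genes in both sexes. Its level in vehicle females was 6.30 ± 2.09 normalized counts per kb (SD, n = 17), against 3.43 ± 0.997 for Gm15441, 1.72 ± 0.403 for Slc25a35 and 0.261 ± 0.182 for Gm5083. In vehicle males the levels per kb were 5.73 ± 1.80 for Txnip, 4.44 ± 1.14 for Slc25a35, 2.61 ± 0.785 for Gm15441 and 2.34 ± 0.582 for Gm5083 (SD, n = 17). Slc25a35 and Gm5083 thus stood higher in males, and Txnip was at a like level in both sexes. All 4 genes were sparsely read: the median library held 143 reads of Txnip, 37 of Gm15441 and 14 of Gm5083. For Slc25a35 the median was 60 reads in females and 129.5 in males, and for Gm5083 in females it was 4.

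In females, the normalized count of Gm15441 had its lowest, median and highest values at 3.75, 5.65 and 10.98 among the 17 vehicle embryos and at 1.69, 3.25 and 5.47 among the 12 at 2 mg/kg-day. At 2 mg/kg-day 9 of the 12 females were below the lowest vehicle female and all 12 were below the vehicle median, while 3 lay inside the vehicle range. The values were 3.21, 4.62 and 5.95 among the 9 females at 0.033 and 3.84, 5.24 and 10.8 among the 10 at 0.2 mg/kg-day. These overlapped the vehicle females, with 1 embryo at 0.033 mg/kg-day below them. The log2 fold changes against vehicle were -0.23 ± 0.16 (SE) at 0.033, -0.00 ± 0.15 at 0.2 and -0.71 ± 0.14 at 2 mg/kg-day. The 3 doses share the vehicle females that the choice of members used, so no test is given for any of them.

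Txnip, the sense partner, overlapped between all female dose groups. Its lowest, median and highest normalized counts were 11.03, 19.8 and 37.5 in vehicle females and 12.9, 16.2 and 17.6 at 2 mg/kg-day. All 12 females at 2 mg/kg-day lay inside the vehicle range and below the vehicle median, in a band with an SD of 1.52 against 6.52 in the vehicle group. At 0.033 mg/kg-day the 3 values were 11.1, 17.6 and 26.8, and at 0.2 mg/kg-day they were 7.40, 19.7 and 49.4, with 1 of 10 females above and 1 below the vehicle range. The log2 fold changes were -0.13 ± 0.18 (SE), -0.04 ± 0.17 and -0.24 ± 0.16 at 0.033, 0.2 and 2 mg/kg-day. Within F1, F2 and F3 they were -0.32, -0.01 and 0.81 at 0.2 mg/kg-day, with 2 females at this dose in F3. At 2 mg/kg-day they were -0.16, -0.11 and -0.44. Set against its partner, Gm15441 had 31.0 ± 9.83 normalized counts per 100 of Txnip in vehicle females (SD, n = 17) and 21.4 ± 7.41 at 2 mg/kg-day (SD, n = 12), and the ranges of this ratio overlapped.

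Slc25a35, the carrier gene, had lowest, median and highest normalized counts of 3.71, 6.25 and 8.45 in vehicle females and of 5.51, 11.02 and 20.3 in females at 2 mg/kg-day. At 2 mg/kg-day 8 of the 12 females were above the highest vehicle female and 4 were inside the vehicle range. The values were 5.33, 7.27 and 10.5 at 0.033 and 4.29, 7.33 and 12.9 at 0.2 mg/kg-day, with 3 of 9 and 2 of 10 females above all vehicle females. The log2 fold changes were 0.29 ± 0.15 (SE), 0.22 ± 0.14 and 0.65 ± 0.14 at 0.033, 0.2 and 2 mg/kg-day.

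Gm5083, the intergenic RNA, had lowest, median and highest normalized counts of 0, 0.270 and 0.735 in vehicle females and of 0.136, 1.03 and 2.96 at 2 mg/kg-day. At 2 mg/kg-day 7 of the 12 females were above all vehicle females and 5 were inside their range. At 0.033 mg/kg-day the 3 values were 0.113, 0.705 and 1.54, and at 0.2 mg/kg-day they were 0.245, 0.508 and 1.45, with 4 of 9 and 2 of 10 females above the vehicle range. The log2 fold changes were 0.55 ± 0.21 (SE), 0.42 ± 0.20 and 0.88 ± 0.19, on a scale of log2(normalized count + 0.5) that understates changes of so low a gene. On recovered whole reads the log2 fold changes fitted by edgeR's quasi-likelihood method were 1.17, 0.83 and 1.83 in the same order, and at 2 mg/kg-day 2.18 in F1, 0.17 in F2 and 2.09 in F3.

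The females at 2 mg/kg-day also had larger library totals, the sum of an embryo's normalized counts: 1075860 ± 120594 (SD, n = 12) against 940517 ± 98112 (SD, n = 17) in vehicle females. This total follows the factor by which the authors scaled each library (TMM) and is not the number of reads. Vehicle male C4232.2 of F1, for example, had 87240533 reads and a total of 836542. Scaling each library to the same total takes that factor away. With each library scaled to the same total, an alternative chosen after seeing the data, the log2 fold changes at 2 mg/kg-day were -0.88 for Gm15441, -0.43 for Txnip, 0.47 for Slc25a35 and 0.77 for Gm5083, and the sex differences at 0.033 and 0.2 mg/kg-day were -0.21, -0.04, 1.05 and 1.58 in that order.

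The comparison that chose the members called 181 of 13288 genes at 2 mg/kg-day (limma, adjusted p below 0.05), which is 1.36% and includes 3 of the 4 members by construction. Gm5083 was the last gene taken, with a log2 fold change of 0.88 ± 0.19 (SE) at rank 3, and Tmub2 was the next, with -0.67 ± 0.15 at rank 4. Without the 11 libraries of over 20000000 reads the count was 0. Leaving out each of the 29 embryos in turn gave counts from 0 (vehicle female D1344.3 of F3, for example) to 1030 (female D1669.5 of F2 at 2 mg/kg-day), and each of 27 embryos, all but vehicle females C4605.2 of F1 and D3001.2 of F2, moved the count by over 1.5 times. The members' own values moved less, with -0.77 to -0.64 for Gm15441, 0.56 to 0.72 for Slc25a35 and 0.76 to 0.98 for Gm5083 as each embryo was left out. At 0.033 and 0.2 mg/kg-day limma called 0 genes in females (0% in each), with 277 and 140 genes at an unadjusted p below 0.05, and on whole reads edgeR's quasi-likelihood test called 10 and 1 and its likelihood ratio test 28 and 1 (in both tests the gene Apoa2, named after its values were seen).

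The female values varied between generations. At 2 mg/kg-day against vehicle, the log2 fold change of Gm15441 was -0.31 ± 0.25 (SE) in F1, -0.69 ± 0.26 in F2 and -1.13 ± 0.28 in F3. In F3 the 4 females at 2 mg/kg-day read 1.69, 2.72, 3.12 and 3.32 normalized counts of Gm15441, all below the lowest of the 6 vehicle females at 4.78, whereas the groups overlapped in F1. The log2 fold change of Slc25a35 was 0.62 ± 0.24, 0.32 ± 0.23 and 0.90 ± 0.24 in F1, F2 and F3, and that of Gm5083 was 0.96 ± 0.38, 0.12 ± 0.28 and 1.34 ± 0.30. The F2 females at 2 mg/kg-day, with 0.240, 0.381 and 0.507 normalized counts of Gm5083, were inside the range of the 6 F2 vehicle females. These values rest on few embryos. In F1 Gm15441 was -0.15 without female C4219.4 at 2 mg/kg-day and -0.03 without the deepest libraries, and in F2 it was -0.41 without female D1669.5. In F1 without the deepest libraries Gm5083 was 0.55. In F2 Slc25a35 ran from 0.05 (without female D4028.2) to 0.56 (without D1669.5) as each embryo was left out, and Gm5083 from 0.01 (without D4028.2) to 0.24. The differences between generations in females were not tested, since the rule used these embryos.

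**Figure D2:**
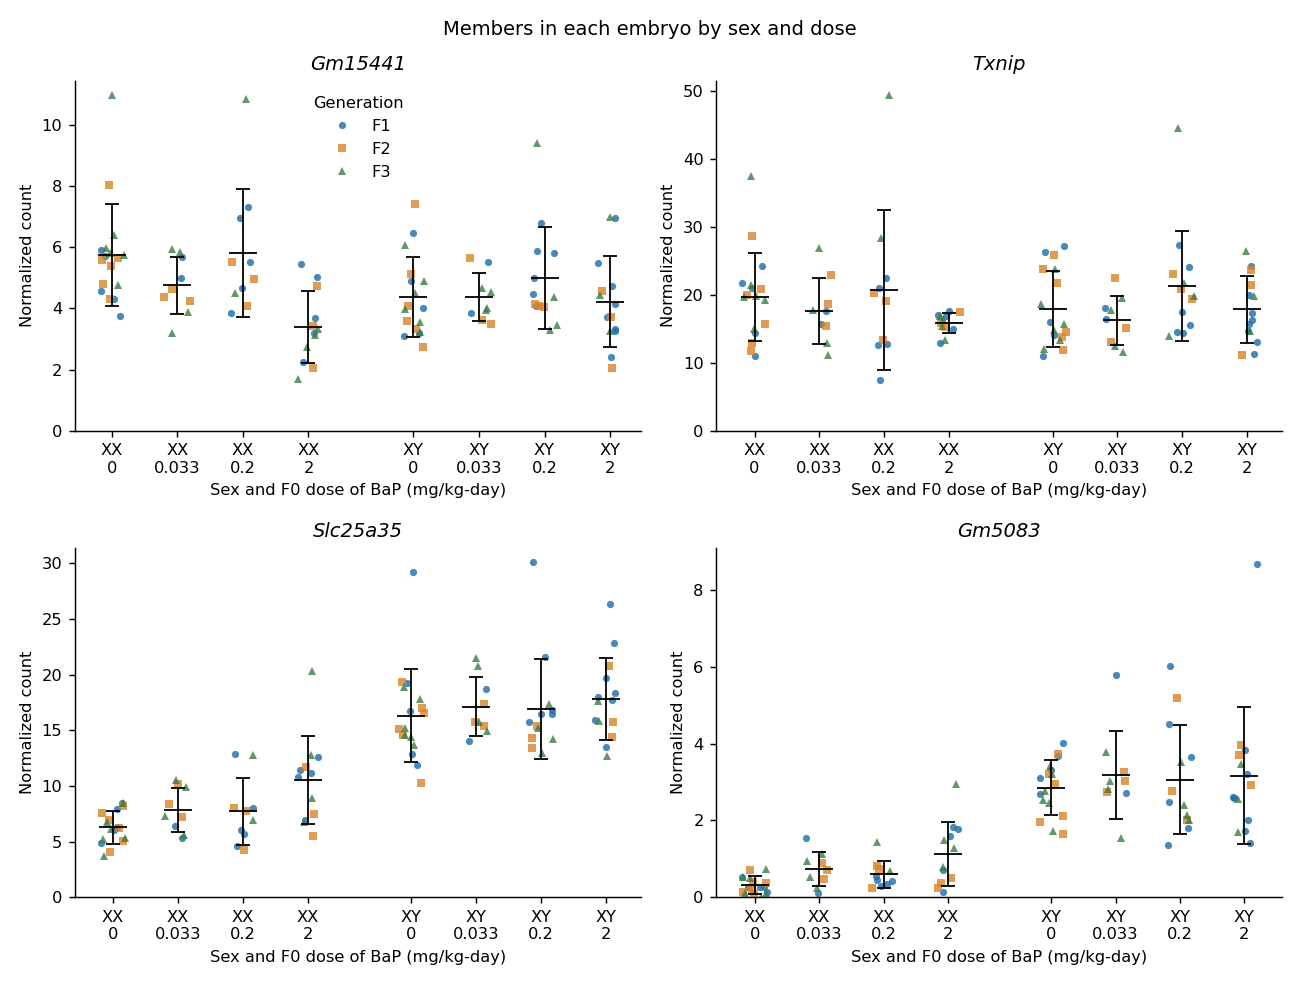
Normalized counts of Gm15441, Txnip, Slc25a35 and Gm5083 in each embryo (vertical axes, from 0) by sex and F0 dose in mg/kg-day (XX female, XY male), with generations by colour and shape and bars for the mean and SD of each group. Slc25a35 is higher in every male at 0.033 and 0.2 mg/kg-day than in any female at those doses, while Gm15441 and Txnip overlap between the sexes.

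Whether the 4 genes differ between the sexes was tested at 0.033 and 0.2 mg/kg-day, in embryos that the rule did not use. Slc25a35 ran from 13.0 to 30.1 normalized counts with a median of 15.8 in the 22 males and from 4.29 to 12.9 with a median of 7.27 in the 19 females, with no overlap. Gm5083 ran from 1.36 to 6.02 with a median of 2.80 in males and from 0.113 to 1.54 with a median of 0.564 in females, and 20 of 22 males were above every female. Slc25a35 was higher in males by 1.12 ± 0.11 on the log2 scale (SE; limma adjusted p = 6.24e-15) and Gm5083 by 1.63 ± 0.16 (limma adjusted p = 6.61e-16). Within F1, F2 and F3 the sex difference was 1.39, 0.99 and 0.87 for Slc25a35 and 1.97, 1.66 and 1.21 for Gm5083, each past the threshold, where 32.7%, 47.2% and 17.2% of genes were called. In F3, which had 2 females at 0.2 mg/kg-day, leaving out female D4021.1 gave 0.66 for Slc25a35 with a limma adjusted p of 0.0876, the other female being assumed to vary like the other groups.

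Gm15441 and Txnip showed no sex difference past the threshold at these doses. All 22 males lay inside the range of the females for both genes. The log2 difference, male minus female, was -0.15 ± 0.12 (SE; limma adjusted p = 0.284) for Gm15441 and 0.02 ± 0.14 (limma adjusted p = 0.902) for Txnip, with 95% intervals of -0.39 to 0.09 and -0.25 to 0.29. Thus 2 of the 4 members were called, both higher in males, where 59.2% of all genes tested were called and 29.2% were called as higher in males. The members' share is near that background. In vehicle embryos, as a description, the sex differences were 1.30 for Slc25a35, 2.05 for Gm5083, -0.37 for Gm15441 and -0.13 for Txnip, and at 2 mg/kg-day they were 0.78, 1.22, 0.28 and 0.12. With the generations combined, the sex differences of Slc25a35 and Gm5083 were thus smaller at 2 mg/kg-day than in vehicle embryos, which restates the female values that chose these genes. In F1, F2 and F3 they were 1.31, 1.23 and 1.36 in vehicle embryos and 0.82, 1.05 and 0.43 at 2 mg/kg-day for Slc25a35, and 2.29, 1.91 and 2.00 and then 1.12, 2.21 and 0.59 for Gm5083, which in F2 had the larger value at 2 mg/kg-day. In the order of the 8 group means, the step from the females at 2 mg/kg-day up to the lowest male group (5.77 and 1.72 normalized counts) was the only one larger than the SD of both groups. For Gm15441 and Txnip no neighbours in that order differed by more than their SD.

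Markers of other cells moved with the sex difference. All 8 tested genes of the Sertoli list were higher in males at 0.033 and 0.2 mg/kg-day, and the summed level of its 9 genes was 358 ± 185 (SD, n = 9) and 179 ± 137 (n = 13) in males against 22.5 ± 5.66 (n = 9) and 35.2 ± 22.4 (n = 10) in females. Aard was its most abundant gene over all embryos, though in males at 0.033 mg/kg-day Ptgds averaged 178 and Aard 155. Sox9 averaged 0.0118 and 0.0576 in females at 0.033 and 0.2 mg/kg-day. Of the early meiosis list 16 of 18 genes were lower in males and 1 was higher, led by Msx2 (log2 difference -4.61 ± 0.25, SE), Stra8 (-6.81 ± 0.41) and Msx1 (-3.28 ± 0.20), each with a limma adjusted p below that of the members. Of the male germ cell fate list 9 of 14 were higher in males and 2 lower, among them Lefty2 (6.49 ± 0.18) and Lefty1 (5.44 ± 0.18). The part of the Sertoli genes in the values of Slc25a35 and Gm5083 was not tested.

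F0 exposure was tested in male embryos, which the rule did not use either, with the spread again taken from the fit of both sexes. In vehicle males the lowest, median and highest normalized counts were 2.72, 4.03 and 7.43 for Gm15441 and 11.04, 15.6 and 27.2 for Txnip, and at 2 mg/kg-day they were 2.05, 3.95 and 6.98 and 11.1, 16.8 and 26.5. For Slc25a35 they were 10.3, 15.2 and 29.2 in vehicle males and 12.7, 17.7 and 26.3 at 2 mg/kg-day, and for Gm5083 they were 1.65, 2.96 and 4.03 and then 1.42, 2.77 and 8.67. The 2 groups overlapped for each member. In males at 0.033 mg/kg-day the 3 values were 3.497, 4.002 and 5.64 for Gm15441, 11.6, 16.4 and 22.4 for Txnip, 14.1, 15.8 and 21.5 for Slc25a35 and 1.53, 3.02 and 5.80 for Gm5083. At 0.2 mg/kg-day they were 3.28, 4.37 and 9.43, then 13.9, 19.8 and 44.6, then 12.99, 15.7 and 30.1, and 1.36, 2.48 and 6.02 in the same order of genes. These also overlapped the vehicle males, with at most 1 male of 9 at 0.033 and 3 of 13 at 0.2 mg/kg-day above the vehicle range for any member.

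Against vehicle males, the log2 fold changes at 0.033, 0.2 and 2 mg/kg-day were 0.03 ± 0.16 (SE), 0.17 ± 0.14 and -0.06 ± 0.14 for Gm15441 and -0.10 ± 0.18, 0.23 ± 0.16 and 0.01 ± 0.16 for Txnip. They were 0.09 ± 0.15, 0.05 ± 0.13 and 0.14 ± 0.13 for Slc25a35 and 0.11 ± 0.21, 0.02 ± 0.19 and 0.05 ± 0.18 for Gm5083. None of the 4 members passed limma's adjusted p of 0.05 at any dose, nor for the mean of the 3 doses, where the values were 0.04 ± 0.11, 0.05 ± 0.13, 0.09 ± 0.11 and 0.06 ± 0.15 in the order Gm15441, Txnip, Slc25a35 and Gm5083. The same holds for the background, with 0 genes called (0%) at each dose and for the mean, beside 621, 447, 519 and 151 genes at an unadjusted p below 0.05. On whole reads edgeR's quasi-likelihood test called 0, 8, 2 and 4 genes and its likelihood ratio test 0, 8, 0 and 1, none of them a member. Named after their values were seen, the 2 were Hba-x and Hbb-y, the 4 were Beta-s, Dcn, Hbb-b1 and Hbb-b2, and the 1 was Dcn. The 95% interval for Gm15441 at 2 mg/kg-day in males was -0.34 to 0.21. Whether the sexes differ in their dose values was not tested, because it would rest on the females that chose the genes.

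Markers of other cells varied between the male dose groups, with no list gene called by limma. The 8 tested Sertoli genes had a median log2 fold change of 0.40 at 0.033 mg/kg-day (8 of 8 above 0, 2 at an unadjusted p below 0.05), -0.70 at 0.2 (0 of 8 above 0, 6 at an unadjusted p below 0.05) and -0.44 at 2 mg/kg-day (0 of 8 above 0, 2 at an unadjusted p below 0.05). The summed level of all 9 genes of that list was 268 ± 144 normalized counts (SD, n = 17) in vehicle males, 358 ± 185 (n = 9) at 0.033, 179 ± 137 (n = 13) at 0.2 and 183 ± 113 (n = 14) at 2 mg/kg-day. The 4 fetal Leydig genes had medians of 0.09, -0.45 and -0.39 and the 5 pregranulosa genes -0.08, -0.32 and -0.38, while the medians of the germ cell, male germ cell fate and early meiosis lists lay between -0.05 and 0.13. In the same order of doses the 2 stroma genes had medians of -0.56, -0.85 and -0.48 and the 4 erythroid genes 0.19, -1.15 and 0.10. Those of the 8 macrophage genes were 0.33, -0.16 and -0.27 and of the 2 endothelial genes -0.25, 0.16 and 0.13. The part of these cells in the male values of the members was not tested.

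Generation made no difference past the threshold in males. In vehicle males the F test over F1, F2 and F3 gave a limma adjusted p of 0.999993 for each of the 4 members, with 0 of 13288 genes called (0%) and 414 at an unadjusted p below 0.05. The log2 differences of F2 and F3 from F1 were -0.01 ± 0.24 (SE) and 0.03 ± 0.24 for Gm15441, and the most distant value of any member was -0.35 ± 0.30, for Gm5083 in F2. The F test of whether a dose contrast differs between generations called no member either, where it called 0% of genes at 0.033, 0.00753% at 0.2 (the gene Dsp, named after its value was seen) and 0% at 2 mg/kg-day. Genes at an unadjusted p below 0.05 numbered 362, 1148 and 128. Within single generations the 36 contrasts of the members in males ran from -0.30 (Gm15441, F2 at 2 mg/kg-day) to 0.50 (Txnip, F3 at 0.2 mg/kg-day), and none passed the threshold. Of all genes, 0% were called in 8 of these 9 comparisons, with 121 to 1414 genes at an unadjusted p below 0.05, and 0.143% in F2 at 0.2 mg/kg-day.

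Txnip and Gm15441 rose and fell together from litter to litter in males. Over 50 male litters, with brothers averaged, the log2 values had a Pearson r of 0.66 and a Spearman rho of 0.60, each with a two-sided permutation p of 1e-05, the smallest that 100000 resamples can give (adjusted p 6e-05 over 6 pairs of members). Without the 2 litters farthest from the median of Txnip r was 0.56 and rho 0.56. Within generations r was 0.40 in 19 F1 litters (permutation p = 0.0904; rho 0.45, permutation p = 0.057), 0.82 in 15 F2 litters (1e-05; rho 0.93, 1e-05) and 0.85 in 16 F3 litters (0.00013; rho 0.61, 0.0139). As deposited the relation thus passed the threshold in F2 and F3 and not in F1. With each library scaled to the same total, which divides both genes by a shared number, F1 passed as well, with r = 0.62 (permutation p = 0.00448) and rho = 0.54 (permutation p = 0.0184). Whether the generations differ was not tested. Without the 2 farthest litters r in F1, F2 and F3 was 0.15, 0.69 and 0.55 (permutation p 0.573, 0.0074 and 0.0396), and rho in F3 was 0.42 (permutation p 0.141), so that the rank relation in F3 rests on those litters. In all litters without the deepest libraries, an alternative chosen after seeing the data, r was 0.71. As a description in 48 females, r was 0.41 and rho 0.19. The permutation tests compare the pair with no relation, and not with other genes. Over all embryos, after group means were taken away, Gm15441 came 338th of 8484 genes by likeness to Txnip (r = 0.55). Txnip came 6th of 8485 by likeness to Gm15441. In GENCODE 36.2% of the exon bases of Gm15441 are shared with Txnip, and reads there cannot be told apart. The part of such reads in the relation was not tested.

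In females the 3 highest embryos were the same for both genes, and in males the highest was. The F3 siblings D4021.1 (female) and D4021.2 (male) at 0.2 mg/kg-day had 49.4 and 44.6 normalized counts of Txnip, the highest of all females and of all males. Their Gm15441 counts were 10.8, second highest of 48 females, and 9.43, highest of 53 males. Vehicle female D1344.3 of F3 was highest for Gm15441 with 10.98 and second for Txnip with 37.5, and vehicle female D3133.2 of F2 was the third in both (8.05 and 28.6), though for Txnip close to the next female at 28.4. The brothers of these 2 vehicle females were not among the highest: male D1344.2 had 3.97 normalized counts of Gm15441 and 18.6 of Txnip, and male D3133.5 had 3.33 and 13.8. Below the highest male the order differed: the males at ranks 2 and 3 for Gm15441 (D2996.2 and D4190.1) were at ranks 10 and 4 for Txnip, and those at ranks 2 and 3 for Txnip (C4322.2 and C4321.1) at ranks 5 and 6 for Gm15441. The high values came with low library totals: the normalized counts of D4021.1, D3133.2, D1344.3 and D4021.2 summed to 781012, 792031, 793034 and 837797, in places 2, 3, 4 and 7 from the lowest of all embryos. Across the 50 male litters the library total had r = -0.41 with Txnip and -0.29 with Gm15441 (permutation p 0.00387 and 0.0429). With a line on the total taken away from both genes, an alternative chosen after seeing the data, Txnip and Gm15441 had r = 0.62 and rho = 0.60 (permutation p = 1e-05 for each).

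**Figure D3:**
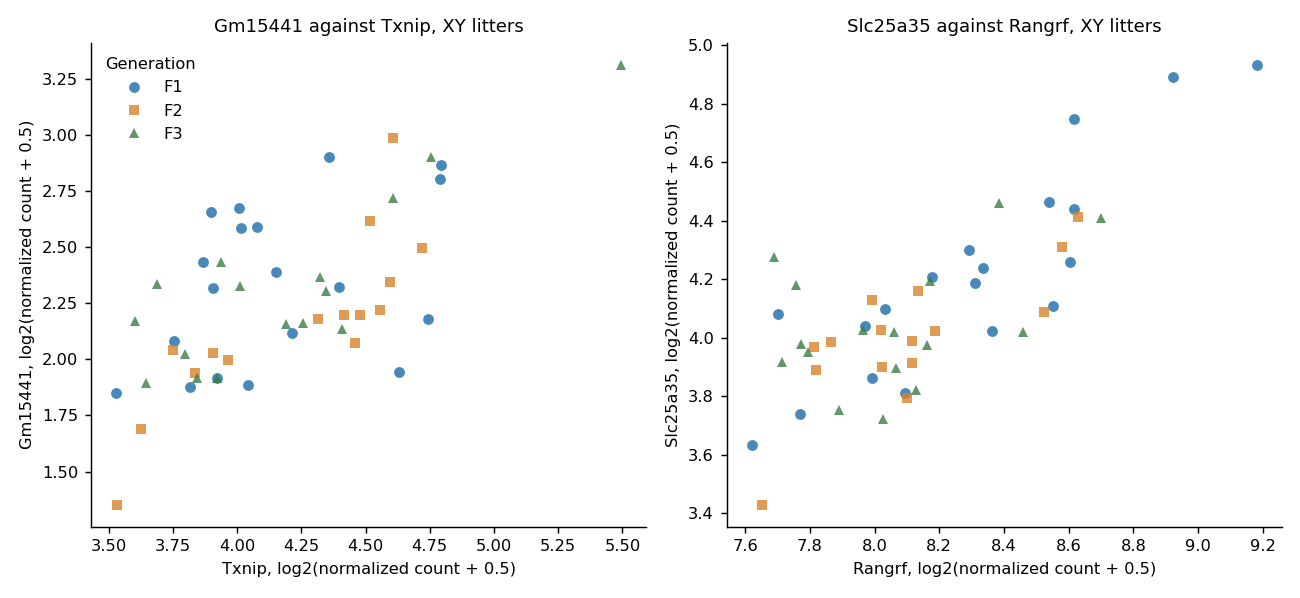
Male litters (XY), 1 point each, by generation: Gm15441 against Txnip and Slc25a35 against Rangrf, on axes of log2(normalized count + 0.5). The points rise together in both panels, with r = 0.66 for the first pair and r = 0.78 for the second over 50 litters.

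The groups had like mean ratios of Slc25a35 to Rangrf, the gene on its opposite strand. Its count per 100 counts of Rangrf was 5.38 ± 0.918 (SD, n = 17) in vehicle females, 5.85 ± 1.24 (n = 12) in females at 2 mg/kg-day, 5.87 ± 1.14 (n = 17) in vehicle males and 5.86 ± 0.861 (n = 14) in males at 2 mg/kg-day. The means of the 8 groups thus lay within an SD of each other, although Slc25a35 itself differed between the sexes. Single embryos varied more, from 3.78 to 6.80 in vehicle females and from 4.48 to 9.17 in vehicle males. Rangrf, at a mean of 223 normalized counts over all embryos, was higher in males at 0.033 and 0.2 mg/kg-day by 1.13 ± 0.13 on the log2 scale (SE; limma adjusted p = 6e-13), beside 1.12 ± 0.11 for Slc25a35. At 2 mg/kg-day in females its log2 fold change was 0.58 ± 0.15 (SE). This is a description with no test, since it is not independent of the choice of Slc25a35, with which Rangrf shares exon bases. Without the deepest libraries no gene was called in that comparison.

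Across the 50 male litters Slc25a35 and Rangrf had r = 0.78 and rho = 0.67 (permutation p = 1e-05 for each, 1 pair, chosen after its values were seen), and r = 0.68 without the 2 farthest litters. Within generations r was 0.88 in F1 (permutation p = 1e-05), 0.78 in F2 (0.00045) and 0.40 in F3 (0.122), and rho was 0.85, 0.68 and 0.25 (2e-05, 0.00643 and 0.354), so that the relation did not pass the threshold in F3. In F2 without the 2 farthest litters r was 0.59 (permutation p = 0.0487) and rho 0.51 (permutation p = 0.0776). Both genes followed the library total, the sum of normalized counts of an embryo, with r = 0.80 for Slc25a35 and 0.86 for Rangrf (permutation p = 1e-05 for each), and the males with the 2 highest totals, C4228.1 and C3774.3 of F1, had the 2 highest values of both. With each library scaled to the same total r fell to 0.37 (permutation p = 0.00811; rho 0.35, permutation p = 0.0143), and with a line on the total taken away from both genes to 0.29 (permutation p = 0.038; rho 0.25, permutation p = 0.0745). Much of the relation was thus shared with the library total. Of the generations only F1 passed with equal totals, at r = 0.60 (permutation p = 0.00651) and rho = 0.65 (0.00305), while F2 had r = 0.31 (0.269) and rho = 0.25 (0.375) and F3 r = 0.07 (0.797) and rho = 0.09 (0.737). Over all embryos, after the means of the 24 groups were taken away, Rangrf was the gene most like Slc25a35 of 8484 compared, with r = 0.79, followed by Nip7 (0.78) and Serp1 (0.76), with the library total not taken away. How many of the reads counted for Slc25a35 came from Rangrf cannot be told from these counts. In GENCODE 90.7% of the exon bases of Rangrf lie in Slc25a35, yet the means over all embryos were 223 and 12.7 normalized counts. The exons of the authors' gene model may thus overlap otherwise, which was not checked.

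By the same measure the genes most like Txnip were Irf1 (0.71), Tcf25 (0.71) and Taf5l (0.70), and Gm15441 came 338th of 8484 genes with r = 0.55. The genes most like Gm15441 were Polr3b (0.61), Rbmxl2 (0.58) and Letm1 (0.57), with Txnip 6th of 8485. For Gm5083 they were Sugt1 (0.57), Gtl3 (0.56) and BC003965 (0.55). Among the members only 1 other pair of male litters passed the threshold: Slc25a35 with Gm5083, at r = 0.40 (permutation p = 0.00489, adjusted p 0.0147) and rho = 0.38 (permutation p = 0.00704, adjusted p 0.0211). Without the 2 farthest litters r was 0.26 (permutation p = 0.0793) and rho 0.31 (permutation p = 0.0328), with adjusted p-values of 0.238 and 0.0984 over the 6 pairs, so that the call rests on those litters. With a line on the library total taken away from both genes r was -0.10 and rho -0.01 (permutation p 0.494 and 0.947), while Gm15441 and Slc25a35, not called as reported, then had r = 0.36 and rho = 0.34 (permutation p 0.00898 and 0.0176, unadjusted). For Slc25a35 with Gm5083 in F1, F2 and F3 alone r was 0.43, 0.41 and 0.14, with permutation p-values of 0.064, 0.126 and 0.598, and rho was 0.48, 0.23 and 0.16 (0.0381, 0.418 and 0.566). The 4 other pairs had adjusted p-values from 0.254 to 0.938 for r. Within generations, unadjusted, Txnip with Slc25a35 in F2 had r = -0.58 (permutation p = 0.0196; -0.56 and 0.0374 without the 2 farthest litters) and rho = -0.48 (0.0722). Gm15441 with Slc25a35 in F2 had r = -0.50 (permutation p 0.0596) and rho = -0.53 (permutation p 0.048). Without the 2 farthest litters that rho was -0.43 (permutation p 0.14). Gm15441 with Gm5083 in F3 had r = 0.29 (permutation p 0.278) and rho = 0.46 (permutation p 0.0704). Without the 2 farthest litters r was 0.53 (permutation p 0.0509) and rho 0.64 (permutation p 0.0158).

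Among the neighbours of the members, Rangrf passed the threshold between the sexes. Its value in females at 2 mg/kg-day is not independent of the choice of Slc25a35, with which it shares exon bases. Of the other annotated genes within 50 kb, Polr3gl, Ankrd34a, Lix1l and 6330549D23Rik near Txnip and Pfas and Ctc1 near Slc25a35 were measured, and none near Gm5083. None of these 6 passed the threshold in females at 2 mg/kg-day, where 1.36% of all genes were called. Their log2 fold changes ran from -0.54 ± 0.22 (SE, 6330549D23Rik) to 0.46 ± 0.21 (Ankrd34a). At 0.033 and 0.2 mg/kg-day Lix1l was lower in males (-0.70 ± 0.11, limma adjusted p = 4.44e-08) and Pfas, an enzyme of purine synthesis, higher (0.62 ± 0.15, limma adjusted p = 0.000175). These were the only calls among the 6 between the sexes, where 59.2% of all genes were called.

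The bases before the start of Txnip are shown because they lie in exons of Gm15441 over their whole length (250 of 250 bases), in 1 of its 2 annotated transcripts, while the other covers only a part of them. Of the 4 members, 1 was found in the RefSeq promoter table, and the window is chr3:96557707-96557956 on the plus strand of GRCm38.p6. Capitals mark the matches, on either strand, to the motifs searched.
Txnip: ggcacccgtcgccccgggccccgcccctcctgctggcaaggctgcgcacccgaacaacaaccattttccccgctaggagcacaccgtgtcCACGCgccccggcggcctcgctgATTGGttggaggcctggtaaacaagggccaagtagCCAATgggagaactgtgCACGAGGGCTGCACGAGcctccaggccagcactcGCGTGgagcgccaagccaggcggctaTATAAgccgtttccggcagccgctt
The paired element of the glucose-responsive factors, searched as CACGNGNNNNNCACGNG after the window had been seen, matched once, 85 bases before the start, and is held by 15 of 32851 windows of the same length (0.0457%). CCAAT matched at 2 places (33.8% of windows hold it), TATAA at 1 (22.8%) and GCGTG, the core of the element bound by the aryl hydrocarbon receptor, at 2 (28.2%). The E-box CACGTG, held by 6.02% of windows, was not among these letters. No match overlapped another, and a match is a description of the letters only.

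Genes that work with Txnip had few calls in females at 2 mg/kg-day and many between the sexes, as genes did in general. Without the deepest libraries no gene was called in females at 2 mg/kg-day, which limits each call there named below. Of 17 tested genes of the thioredoxin system 1 was called at 2 mg/kg-day, the peroxiredoxin Prdx1 (log2 fold change 0.44 ± 0.12, SE, limma adjusted p = 0.0488), with a list median of 0.08 beside -0.02 for all genes. Between the sexes at 0.033 and 0.2 mg/kg-day 2 of them were higher and 7 lower in males, led by Prdx4 (-0.68 ± 0.10), Srxn1 (-0.90 ± 0.15) and Txnrd3 (-0.71 ± 0.12). None of the 4 alpha-arrestins tested, the 11 genes around MondoA and ChREBP, or the 12 partners and regulators of Txnip was called in females at 2 mg/kg-day. Their medians there were -0.22, -0.02 and -0.13, and the most abundant genes were Arrdc4 (0.37 ± 0.12, limma adjusted p = 0.0602) and Txn1, the thioredoxin itself (0.38 ± 0.14, limma adjusted p = 0.0809).

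Between the sexes at 0.033 and 0.2 mg/kg-day, the alpha-arrestins Arrdc3 (0.70 ± 0.14, SE) and Arrdc2 (0.54 ± 0.17) were higher in males and Arrdc4 (-0.30 ± 0.10) lower, while Txnip of the same family differed by 0.02 ± 0.14. Of the MondoA and ChREBP genes 4 were higher and 4 lower in males, led by Rgs16 (1.17 ± 0.14), Pfkfb3 (1.04 ± 0.16) and Acaca (-0.995 ± 0.162). Of the Txnip partners 5 were higher and 4 lower, led by the glucose transporter genes Slc2a1 (1.27 ± 0.14) and Slc2a3 (-0.70 ± 0.13) and the ubiquitin ligase gene Itch (-0.97 ± 0.11). The list medians were 0.12, -0.11 and 0.06 in that order, beside -0.00 for all genes.

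The targets of Ppara, the receptor through which Gm15441 is induced in liver, gave 0 calls among 18 genes in females at 2 mg/kg-day (median -0.24). Between the sexes 7 were higher and 3 lower in males, led by Cpt1a (1.63 ± 0.13, SE), Vnn1 (2.10 ± 0.25) and Acadm (0.59 ± 0.09), the most abundant. Of the 39 tested genes of the family of Slc25a35, 1 was called in females at 2 mg/kg-day, Mtch2 (0.40 ± 0.11, limma adjusted p = 0.0481), with a list median of -0.10. Between the sexes 10 were higher and 14 lower in males, with Slc25a33 (0.72 ± 0.07) higher and Slc25a36 (-1.16 ± 0.11) and Slc25a43 (-1.68 ± 0.16) lower, and a median of -0.05. In males limma called 0 genes of these lists at any dose.

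The marker lists are given beside the female comparison that chose the members, where of all of them 1 gene was called, and none without the deepest libraries. The early meiosis list had a median log2 fold change of -0.32 in females at 2 mg/kg-day beside -0.02 for all genes, with 0 of 18 genes called and 4 of 18 at a value above 0 (6141 of 13288 for all genes), so that most lay lower. Stra8, a gatekeeper of meiosis, stood at 273 ± 203 normalized counts (SD, n = 12) against 416 ± 197 in vehicle females (SD, n = 17), while Syce2, the most abundant, lay above vehicle females by 0.56 ± 0.20 on the log2 scale (adjusted p = 0.0783 in limma). The summed list, which Syce2 weighs on, was 4264 ± 1111 against 4191 ± 1906. The median of the male germ cell fate list was 0.10 with 0 of 14 called and 5 at an unadjusted p below 0.05. Its most abundant gene Nanos3 had 88.1 normalized counts on average against 52.6 (0.70 ± 0.23 on the log2 scale, adjusted p = 0.0654 in limma), and its sum was 321 ± 67.6 against 259 ± 42.8. Of the 9 germ cell markers Dppa3 was called (0.51 ± 0.14, SE, limma adjusted p = 0.0481) and the median was 0.08. The summed Sertoli level was 39.2 ± 30.3 with a median of 23.3, against 22.6 ± 6.78 with a median of 20.4, and none of its 8 tested genes was called. Aard made up most of that sum (means 37.5 and 21.1), and Sox9 (0.0663 and 0.0381) and Ptgds (0.412 and 0.392) were near 0 in both groups.

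The erythroid list summed to 294 ± 600 normalized counts (SD, n = 12) in females at 2 mg/kg-day with a median embryo at 3.04, and to 14.5 ± 53.8 (n = 17) with a median of 1.40 in vehicle females, so that single embryos carried it; Hba-a2 was its most abundant gene. Medians of the log2 fold changes in females at 2 mg/kg-day were 0.11 for pregranulosa genes, 0.28 for fetal Leydig genes, 0.11 for stroma, 0.10 for endothelium, -0.03 for macrophages and 1.68 for erythroid cells, over 5, 4, 2, 2, 8 and 4 tested genes, none of them called. In the same order they were 0.33, 0.03, 1.04, 0.13, 0.73 and 1.82 at 0.033 mg/kg-day. All 8 macrophage genes were above 0 there, 3 at an unadjusted p below 0.05 in limma. At 0.2 mg/kg-day they were -0.02, 0.03, 0.57, 0.02, -0.08 and 1.31, with no gene called at either dose. Between the sexes at 0.033 and 0.2 mg/kg-day the calls as higher and lower in males were 2 and 2 for pregranulosa genes, 2 and 1 for fetal Leydig genes, 0 and 2 for stroma, 0 and 1 for endothelium, 0 and 0 for macrophages, 0 and 2 for erythroid cells and 3 and 5 for germ cell markers. The part of these cells in the members' female values was not tested.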

How the data were processed

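The deposited values are gene counts that the authors divided by library sizes scaled by TMM in edgeR, a normalized signal and not whole counts; per the submitters' processing notes reads were trimmed with Trim Galore and aligned with STAR to mm10. Whole reads were recovered from the step between values in 99 of 101 embryos (100% of nonzero values within 0.05 of a whole read) and not in 2 embryos, which the count tests leave out. No 2 replicates of a group agreed within sampling noise (184 pairs, lowest chi-square per degree of freedom 5.44).

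Tests used limma 3.58.1 (R 4.3.3) with empirical Bayes moderation and a mean trend on log2(normalized count + 0.5), over genes with a mean of at least 0.5, in 1 fit of 8 sex-by-dose groups, with Benjamini-Hochberg adjustment over all 13288 genes, and 24 groups for the F tests. The study's likelihood ratio test and the quasi-likelihood test of edgeR 4.0.16 on whole reads were alternatives. Other alternatives were pseudocounts of 0.1 and 1, no filter or a mean of at least 5, upper quartile scaling, dam as a block, averaged littermates, a generation term, a fit of the compared groups alone, and leaving out each embryo or the deepest libraries. Scaling each library to the same total, or taking away a line on that total, was added after the data were seen. Scripts were tested on simulated data with 200 changed genes. Correlations used Python 3.11.15 and numpy 2.4.6.

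The dam was inferred from a code in the sample titles that the labels do not explain, so litters are an inference. Descent of F2 and F3 litters from the same F0 dam is not labelled and was not modelled. As a check, deviations from group means correlated within 43 brother and sister pairs with a median of 0.22 (31 pairs over 0.1), against -0.01 for other pairs of a generation.

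The members and the 16 lists were chosen with earlier results of these data known. Named genes were the members; per list and comparison the 3 genes with the smallest p past the threshold and the most abundant gene; the 3 genes most like each member (mean of at least 5); genes within 50 kb; and ranks 3 and 4. Rangrf was followed further after its values were seen.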

Additional observations from a re-analysis of the deposited data

Results flagged for a closer look

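In 56 groups of 4 to 8 embryos (4 genes by generation, sex and dose) 4 groups had 1 embryo far from the others, where chance alone flags about 1 in 20 groups. Vehicle female D3133.2 of F2 read 8.05 normalized counts of Gm15441, with the other 5 embryos between 4.32 and 5.65. Vehicle female D1344.3 of F3 read 10.98 of Gm15441, with the others between 4.78 and 6.40, and 37.5 of Txnip, with the others between 14.9 and 21.4. Male C4219.2 of F1 at 2 mg/kg-day read 8.67 of Gm5083, with the other 7 embryos between 1.42 and 3.83. The first 3 values belong to vehicle females of the comparison that chose the members.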

How the results depend on the processing

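The sex differences of Slc25a35 and Gm5083 at 0.033 and 0.2 mg/kg-day kept their direction and call with the generations combined under every alternative that was tested (1.05 to 1.16 and 1.28 to 2.27 on the log2 scale), dam as a block included (consensus correlation 0.26). Scaling each library to the same total gave 1.05 and 1.58, with no test run. A mean of at least 5 left Gm15441 and Gm5083 without a value. The sign of Txnip, not called, changed in edgeR's quasi-likelihood and likelihood ratio tests (-0.0340 and -0.0338), without the deep libraries (-0.0699), and as each embryo was left out (-0.0479 to 0.0999, in F2 -0.0656 to 0.126). In F3 alone Slc25a35 ran from 0.66 to 1.08.

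In males, with no member called, Gm15441 at 0.033 mg/kg-day was -0.00651 and -0.0115 in the 2 edgeR tests, Txnip at 2 mg/kg-day -0.0647 and -0.0649, and Gm5083 without the deep libraries -0.0181 at 0.2 and -0.0224 at 2 mg/kg-day. As each embryo was left out, Gm15441 at 0.033 mg/kg-day ran from -0.0156 to 0.0751, at 0.2 mg/kg-day Slc25a35 ran from -0.0179 to 0.106 and Gm5083 from -0.0579 to 0.0930, and at 2 mg/kg-day Gm15441 ran from -0.118 to 0.00148, Txnip from -0.0386 to 0.0554 and Gm5083 from -0.0654 to 0.108. The female value of Txnip in F2 at 2 mg/kg-day ran from -0.218 to 0.0312. In females at 0.2 mg/kg-day Txnip ran from -0.194 to 0.101 as each embryo was left out and from -0.0411 to 0.138 under other alternatives. Gm15441 there ran from -0.104 to 0.0536 and from -0.0154 to 0.0315. The female value of Gm5083 was 1.83 and 1.86 at 2, 1.17 and 1.18 at 0.033 and 0.83 and 0.82 at 0.2 mg/kg-day in the edgeR tests, which add no 0.5, and 0.82 at 0.2 mg/kg-day with a pseudocount of 0.1. At 2 mg/kg-day it was 2.18 and 2.19 in F1 and 2.09 and 2.10 in F3 in those tests, and 2.23 in F3 with a pseudocount of 0.1. Without the deep libraries it was 0.55 in F1. With each library scaled to the same total, Txnip changed sign between the sexes (-0.04) and in males at 2 mg/kg-day (-0.05), as did Gm15441 in males at 0.033 (-0.02) and Gm5083 in males at 2 mg/kg-day (-0.01).

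Genes called in females at 2 mg/kg-day, 181 as reported, numbered 21 and 276 with pseudocounts of 0.1 and 1, 19 with no filter, 414 with a mean of at least 5, 445 with dam as a block, 1 with a generation term (Gm15441), 827 in the compared groups alone, 33 by quasi-likelihood, 0 without the deep libraries and 0 to 1030 as each embryo was left out. Gm15441 was chosen from this comparison, so its call there is no test. A mean of at least 5 left 5053 genes called between the sexes, of fewer tested. EdgeR's quasi-likelihood and likelihood ratio tests called 10 and 28 genes in females at 0.033, 1 and 1 at 0.2, 8 and 8 in males at 0.2, and 4 and 1 for the mean of the male doses; quasi-likelihood called 2 in males at 2 mg/kg-day. In males at 0.2 mg/kg-day a pseudocount of 1 gave 1 gene, and leaving out embryos gave 0 to 1 (1 without vehicle male C3774.3 of F1 or D3523.1 of F3). As each litter was left out and under other alternatives, the correlation of Txnip and Gm15441 in male litters ran from 0.59 to 0.78. It was highest with each library scaled to the same total, and 0.56 without the 2 litters farthest from the median of Txnip. With a line on the library total taken away, that of Rangrf and Slc25a35 fell from 0.78 to 0.29 and that of Slc25a35 and Gm5083 went from 0.40 to -0.10 (permutation p 0.038 and 0.494). For these changes the cause was not tested. The generation tests were not run under other settings. Few reads of Gm5083 in females limit its values there.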
